A study of Caenorhabditis elegans with 2 samples.

Results

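The nuclear genes of the mitochondrial respiratory chain were taken by symbol from the Ensembl annotation of WBcel235, as the protein-coding genes whose names start with nuo-, sdha-, sdhb-, sdhd-, cyc-, isp-, ucr-, cox- or atp-. The rule found 39 of 19973 nuclear coding gene records. By role these were 6 genes of complex I, 4 of complex II, 7 of complex III, 2 of cytochrome c, 7 subunits of complex IV, 8 assembly factors of complex IV and 5 of ATP synthase. The prefix cox- therefore joins structural subunits with factors that are not part of the finished enzyme, and both are kept apart below. The prefixes also miss genes known under other names, which were counted as a separate list of 68 genes. Besides further subunit and inhibitor genes, it holds 13 assembly and haem factors, 8 ubiquinone synthesis genes and 5 ADP/ATP carrier and porin genes. Of 89 names drawn up for it, 21 were unmatched, repeated or already held by the name rule.

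The study profiled where SEA-1, a T-box transcription factor, sits on chromatin of whole Caenorhabditis elegans early embryos (0 hour, from bleached adults). The only group was strain OP129, with the integrated transgene wgIs129(sea-1::TY1 EGFP 3xFLAG; unc-119(+)) in an unc-119(ed3) background, in 2 biological replicates. Fragments of 200-800 from sonication were pulled down through GFP, so the tagged transgene product was measured and not the endogenous protein. Whole embryos mix many cells, and binding in fewer cells cannot be told apart from weaker binding in each.

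The respiratory chain passes electrons from NADH and succinate through complexes I and II to ubiquinone, complex III and cytochrome c, and complex IV hands them to oxygen. The proton gradient made on the way drives ATP synthase. A few subunits of complexes I, III, IV and ATP synthase are encoded in mitochondrial DNA, and all others, complex II entire, come from the nucleus.

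For each gene the highest signal value, the authors' measure of peak height, was read among peaks with a summit between 1000 bp before and 200 bp after an annotated 5′ end, here called the promoter window. This was done in a ranked list made from both replicates (the series list) and in the ranked list of each replicate. Ranked lists are long and hold weak peaks: of all coding genes 69.9% had a summit in the window in the series list, 59.6% in replicate 1 and 58.8% in replicate 2. Of the respiratory genes 38 of 39 had a series peak (97.4%). In replicate 1 33 of 39 had a ranked peak and in replicate 2 also 33 (84.6% each), with 29 genes in both. A thresholded list, named conservative by the authors, holds the peaks that both replicates ranked alike, at an irreproducible discovery rate (IDR) of 0.01 or less.

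SEA-1 signal at the respiratory genes was highest at 3 of 7 complex IV subunits, cox-6A, cox-5B and cox-6B. Of the 32 respiratory genes outside those subunits 96.9% had a series peak, with a median signal value of 37.9, against a median of 34.4 for all coding genes. With each peak counted only for the nearest 5′ end, these medians were 32.4 and 33.2. Of the 39 genes, 5 (12.8%) carried a conservative summit in the promoter window, against 3.29% of all coding genes. The other 2 were cyc-2.1, a cytochrome c gene, and nuo-2, a subunit gene of complex I. None of 4 complex II genes, 7 complex III genes, 8 assembly factor genes and 5 ATP synthase genes had any. At a share of 3.29%, groups of 4 to 8 genes would mostly hold none, so these zeros do not set them apart from coding genes. In the second thresholded list 4 respiratory genes (10.3%) had a summit, against 3.28% of coding genes, and nuo-2 was the gene not held there.

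Windows of 101 bases around 4 series summits show the sequence under 4 of the peaks. They belong to conservative peaks at cox-6B and cyc-2.1 and to the strongest peaks without a conservative call, at sdha-1 and ucr-2.2; those of cox-6A, cox-5B and nuo-2 are not shown. All are read from the ce11 (WBcel235) genome on the strand of the respiratory gene, 5′ to 3′. In cox-6B (chrIII:2786002-2786102, plus strand), cyc-2.1 (chrIV:4748481-4748581, minus strand) and ucr-2.2 (chrX:15173618-15173718, plus strand) capitals mark the 11 bases centred on the summit. In sdha-1 (chrX:8546119-8546219, minus strand) capitals mark the 86 bases that belong to the small nucleolar RNA gene D2021.6.
cox-6B: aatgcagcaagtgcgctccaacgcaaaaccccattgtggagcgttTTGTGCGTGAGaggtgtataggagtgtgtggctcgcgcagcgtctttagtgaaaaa
cyc-2.1: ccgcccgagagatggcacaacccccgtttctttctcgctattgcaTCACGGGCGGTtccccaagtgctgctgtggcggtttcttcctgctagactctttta
sdha-1: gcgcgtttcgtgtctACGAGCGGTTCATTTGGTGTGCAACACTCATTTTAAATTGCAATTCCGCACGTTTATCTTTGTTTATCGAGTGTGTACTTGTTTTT
ucr-2.2: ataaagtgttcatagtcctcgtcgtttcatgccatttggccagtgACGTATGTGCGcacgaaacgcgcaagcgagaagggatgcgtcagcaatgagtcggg

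The cox-6B and cyc-2.1 windows hold 51.5% and 56.4% G and C, the ucr-2.2 window 52.5% and the sdha-1 window 40.6%. None of the motifs given further on was in any of the 4, on either strand. Each of the 4 occurred once in the genome.

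The strongest respiratory gene was cox-6A, which codes for a nuclear subunit of cytochrome c oxidase. Its signal value was 213 in the series list, 108 in replicate 1 and 110.3 in replicate 2. Both replicates placed it high among coding genes with a ranked peak, at percentile 99.4 in replicate 1 and 99.5 in replicate 2. Its peak (III:5080711-5081030) lay 853 bp upstream of the 5′ end, between genes, and its summit fell inside the small nuclear RNA gene F54D8.7 (III:5080798-5080898, minus strand). The 101 bases of that RNA gene occur as 17 exact copies in the nuclear genome, and 5 of the copies had a conservative summit within 100 bp, with signal values from 94.1 to 281. The part of reads that could come from other copies was not tested. With peaks at tRNA, snoRNA and snRNA genes left out, cox-6A lost its conservative call, and cox-5B and cox-6B kept theirs.

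The cox-5B gene, for another nuclear subunit of the same enzyme, had a signal value of 164 in the series list, 91.2 in replicate 1 and 74.5 in replicate 2. Its peak (I:9788556-9788875) lay on the promoter itself, with the summit 9 bp upstream of the 5′ end. It was in no other coding gene's window and at no small RNA gene. Among the conservative peaks at respiratory genes it was the nearest to a 5′ end.

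At cox-6B, for a subunit on the intermembrane side of the enzyme, the signal value was 125 in the series list, 61.5 in replicate 1 and 68.2 in replicate 2. The peak (III:2785892-2786211) lay in an intron of the gene record, 150 bp upstream of its inner 5′ end. The same summit was 104 bp upstream of Y71H2AM.20, which is nearer, and 800 bp upstream of nduc-2, a complex I subunit gene. Counting each peak only for the nearest 5′ end therefore removed cox-6B and left 4 respiratory genes with a conservative summit, against 2.49% of coding genes under the same rule.

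The cytochrome c gene cyc-2.1 had 82.8 in the series list, 36.3 in replicate 1 and 47.5 in replicate 2. Its peak (IV:4748371-4748690) lay 82 bp upstream of an inner 5′ end, in an intron of the gene, which the window of tctn-1 also holds. The paralogue cyc-2.2, the second cytochrome c gene, had no ranked peak in its window in any list.

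The complex I gene nuo-2, for a subunit of the arm that reaches into the matrix, had 75.4 in the series list, 37.3 in replicate 1 and 37.5 in replicate 2. Its peak (I:6531913-6532232) lay 110 bp upstream of the 5′ end, in the 3′ UTR of the gene before it, T10E9.14, whose end is 19 bp away on the same strand. Its −log10 IDR in the list that compares the replicates was 2.04, just past the threshold of 2. The corresponding scores were 2.24 for cyc-2.1, 3.18 for cox-6B, 3.48 for cox-5B and 3.79 for cox-6A.

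The replicates' own thresholded lists drew a narrower set. Each held cox-6A, cox-5B and cox-6B and no other respiratory gene. These 3 genes (7.69%) compare with 1.54% of coding genes for replicate 1 and 1.57% for replicate 2. A summit of both own lists stood at 1.01% of coding genes. So 3 of 7 complex IV subunits (42.9%) had a conservative summit and also a summit in both own lists. The 32 other respiratory genes had 2 (6.25%) and 0, against 3.29% and 1.01% of coding genes. Of the 3 subunits only cox-5B was counted in every alternative setting. An own list rests on 1 library, with no second library to check it.

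**Figure D1:**
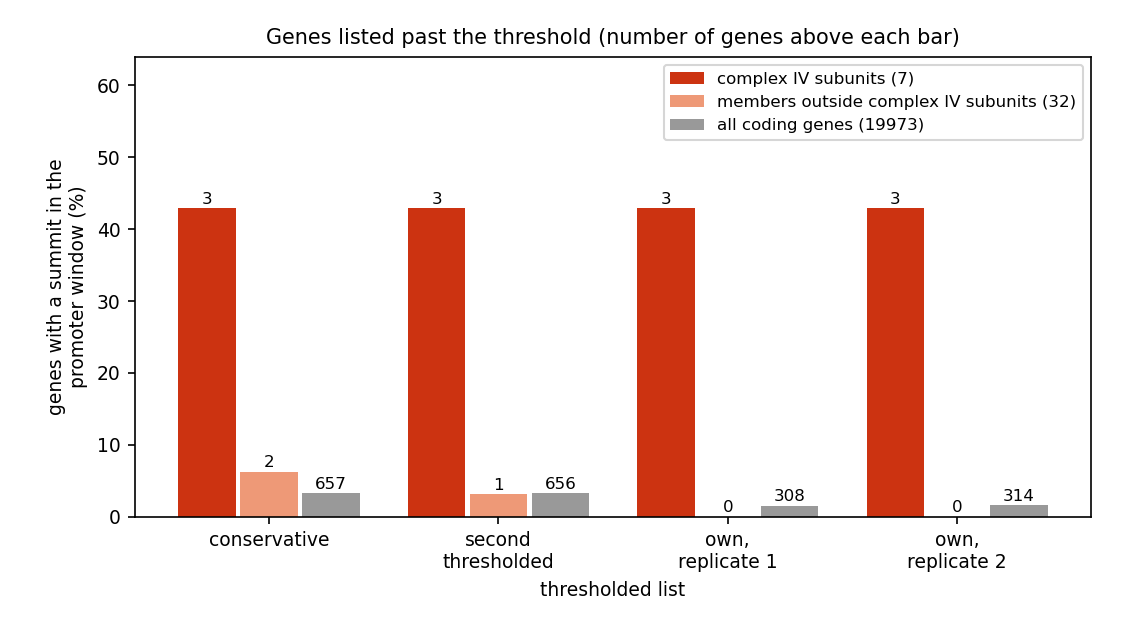
Share of genes (percent, from 0) with a summit in the promoter window in each of 4 thresholded lists, for the 7 complex IV subunits, the 32 other respiratory genes and all 19973 coding genes, with the number of genes above each bar. The complex IV bar stands at 3 genes in every list, and the other respiratory genes go from 2 in the conservative list to 0 in both own lists.

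By complex, the median highest series signal value was 33.1 over 6 complex I genes, 47.5 over 4 complex II genes, 40.8 over 7 complex III genes, 56.6 over 7 complex IV subunits, 26.5 over 8 assembly factors and 37.9 over 5 ATP synthase genes. The median of all coding genes with a series peak was 34.4. In replicate 1 the medians were 22.2 for complex I, 16.7 for complex II, 23.1 for complex III, 27.7 for complex IV subunits, 19.3 for assembly factors and 26.4 for ATP synthase, against 21.3 for all coding genes. In replicate 2 they were 24.3, 17.97, 21.5, 36.1, 23.9 and 25.7 in the same order, against 20.6 for all coding genes. Complex II was thus above the coding gene median in the series list and below it in both replicates. By the nearest 5′ end the complex III median was 27.2, against 33.2 for all coding genes, which turns its direction. Over the 38 respiratory genes with a series peak it was 42.0, and over the 31 outside the complex IV subunits 37.9. In replicate 1 all respiratory genes together had a median of 23.9 against 21.3 for all coding genes, and in replicate 2 a median of 24.3 against 20.6. These are medians of the genes that passed into each list, and carry no test. When each peak counted only for the nearest 5′ end, the medians were 33.8 for respiratory genes and 33.2 for all coding genes, a gap of under 1 unit of signal value. Outside the complex IV subunits the median was then 32.4.

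**Figure D2:**
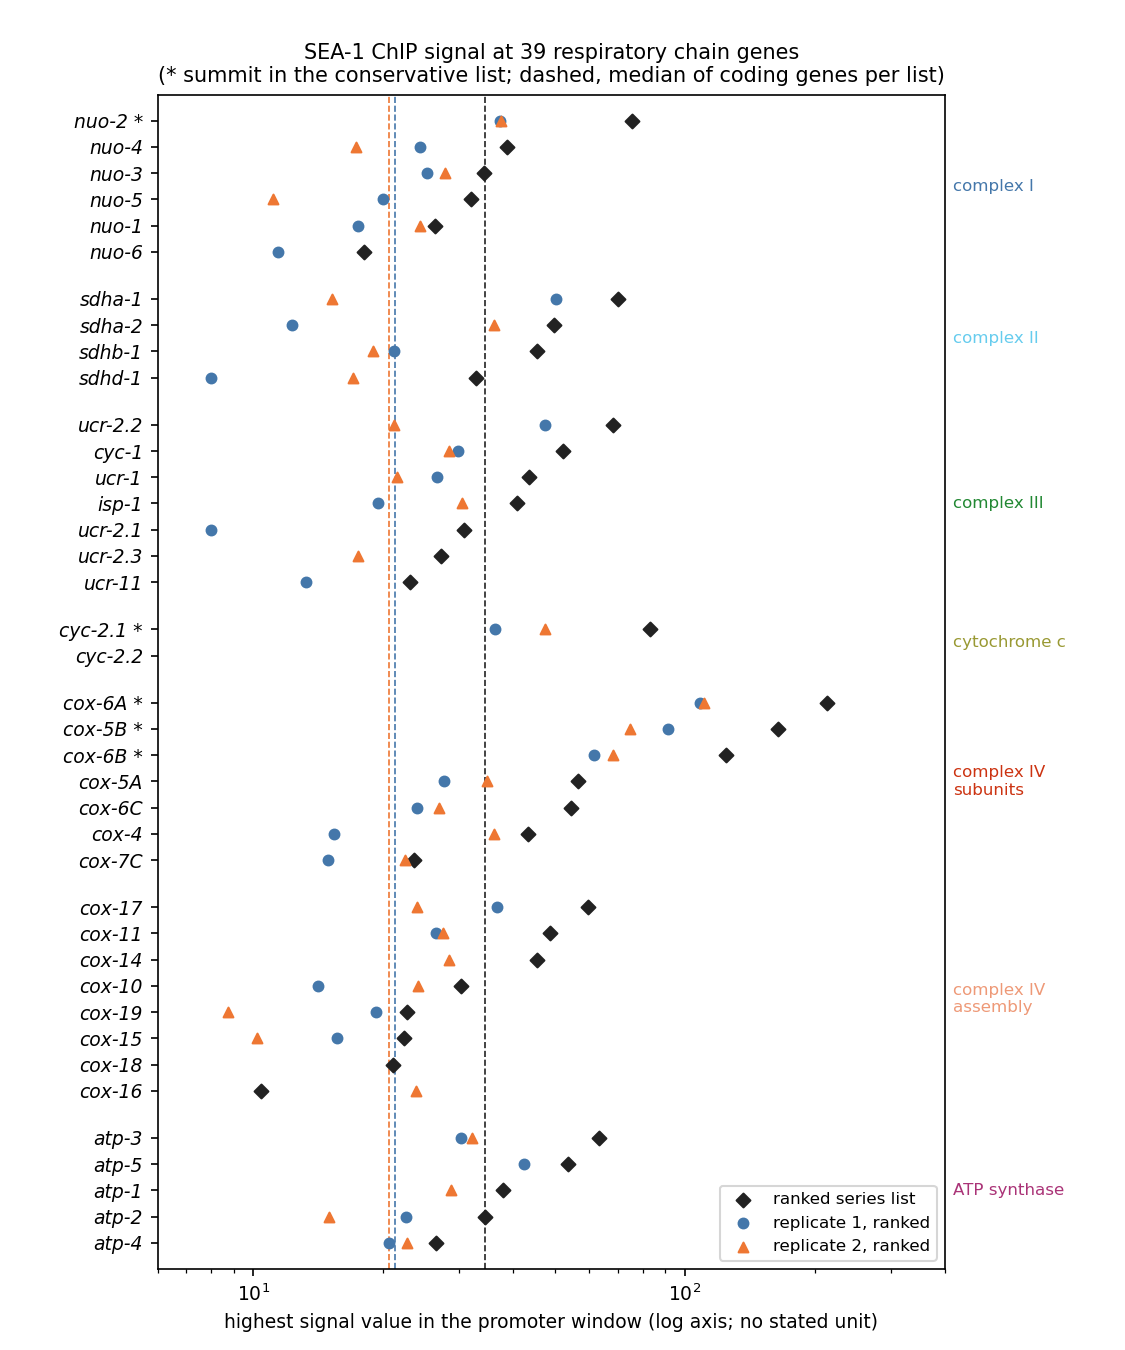
Highest signal value in the promoter window (log axis, no stated unit) of the 39 respiratory genes, in rows grouped by complex, in the series list (diamonds), replicate 1 (circles) and replicate 2 (triangles). Dashed lines mark the medians of coding genes (34.4, 21.3 and 20.6), an asterisk marks a conservative summit, and only cox-6A, cox-5B and cox-6B lie above 100 in the series list.

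Complex I takes electrons from NADH, and over its 6 genes the median was near that of coding genes in the series list. After nuo-2, the next gene, nuo-4, whose human counterpart is NDUFA10, had 38.7 in the series list, 24.4 in replicate 1 and 17.3 in replicate 2. The gene nuo-3, whose human counterpart is NDUFA6, had 34.3, 25.2 and 27.8 in the same lists. The flavoprotein gene nuo-1, for the subunit that binds NADH, had 26.3 in the series list, 17.4 in replicate 1 and 24.3 in replicate 2, and nuo-5, for the large iron-sulfur subunit, had 32.0, 20.001 and 11.1. The lowest was nuo-6, whose human counterpart is NDUFB4, with 18.1 in the series list, 11.4 in replicate 1 and no ranked peak in replicate 2. In the series list 2 of 6 complex I genes stood above the median of coding genes with a peak, as did 6985 of all 19973 coding genes. The summits of nuo-4 and nuo-3 lay 984 and 964 bp upstream, at the far edge of the window.

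Complex II, which oxidizes succinate, had no conservative peak, and the replicates gave its flavoprotein genes unlike values. The flavoprotein gene sdha-1 had 70.0 in the series list, 50.2 in replicate 1 and 15.2 in replicate 2. Its summit, 148 bp upstream, lay inside the snoRNA gene D2021.6, whose sequence occurs once in the genome. Its −log10 IDR was 0.218, far under the threshold, although its series value was near that of nuo-2. The paralogue sdha-2 ran the other way, with 49.6 in the series list, 12.3 in replicate 1 and 36.2 in replicate 2. Its series summit lay 765 bp upstream, in a coding exon of the neighbouring gene ndua-13. The iron-sulfur gene sdhb-1 had 45.4, 21.2 and 18.9 in the same lists, and the membrane anchor gene sdhd-1 had 32.8, 7.98 and 17.0. The series summit of sdhb-1 lay 67 bp downstream in its own coding exon, and that of sdhd-1 615 bp upstream in an intron of ilkp-1. Although 3 of 4 complex II genes were above the coding gene median in the series list, 1 of 4 was in replicate 1 and 1 of 4 in replicate 2, and these were different genes. Of all 19973 coding genes, 6985 passed that median in the series list, 5953 in replicate 1 and 5876 in replicate 2.

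Complex III moves electrons from ubiquinol to cytochrome c. Its strongest gene was ucr-2.2, for a core protein, with 68.0 in the series list, 47.4 in replicate 1 and 21.1 in replicate 2. The cytochrome c1 gene cyc-1 was more even, with 52.2 in the series list, 29.8 in replicate 1 and 28.3 in replicate 2. The other core protein gene ucr-1 had 43.4, 26.7 and 21.5, and the Rieske iron-sulfur gene isp-1 had 40.8, 19.5 and 30.5. The paralogues of ucr-2.2 were lower, with a series value of 30.8 for ucr-2.1, which had no ranked peak in replicate 2, and 27.2 for ucr-2.3, which had none in replicate 1. The small subunit gene ucr-11 had 23.1 in the series list, 13.3 in replicate 1 and none in replicate 2. The summits of isp-1, ucr-1, ucr-11 and ucr-2.1 lay nearer to the 5′ end of another coding gene than to their own.

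Among complex IV subunits outside the thresholded lists, cox-5A had 56.6 in the series list, 27.7 in replicate 1 and 34.8 in replicate 2. The subunit gene cox-6C had 54.5, 23.9 and 26.9, and cox-4, for the largest nuclear subunit in mammals, had 43.3, 15.4 and 36.1. The lowest, cox-7C, had 23.6 in the series list, 14.9 in replicate 1 and 22.4 in replicate 2. Of the 7 subunit genes, 6 were above the coding gene median in the series list, 5 in replicate 1 and 7 in replicate 2, and 5 were above it in both replicates. That median is over genes with a peak. Of all 19973 coding genes, 6985 passed it in the series list, 5953 in replicate 1 and 5876 in replicate 2. Counting all respiratory genes, 14 of 39 were above the median in both replicates, against 3434 of 19973 coding genes (17.2%). These shares also count genes without a peak. Of the 39, 29 had a ranked peak in both replicates, as had 9067 of the 19973. Among the 14 were nuo-3 and ucr-1, whose highest peaks in the 2 replicates were 356 and 999 bp apart and did not overlap.

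The assembly factors had a median series value of 26.5, against 56.6 for the subunits they serve, but in the window of 2000 bp upstream and 500 bp downstream it was 48.8, against 56.6 for the subunits and 40.6 for all coding genes. The copper chaperone gene cox-17 led them with 59.7 in the series list, 36.7 in replicate 1 and 23.9 in replicate 2. Next was cox-11, for a factor that in yeast passes copper to the enzyme, with 48.6, 26.5 and 27.6. The assembly factor gene cox-14 had 45.4 in the series list, no ranked peak in replicate 1 and 28.4 in replicate 2. The haem synthesis genes cox-10 and cox-15 had series values of 30.35 and 22.4, and cox-19, for a copper-handling protein known from yeast, had 22.7. The gene cox-18, whose yeast counterpart inserts a mitochondrially encoded subunit into the membrane, had 21.1 in the series list and no ranked peak in either replicate. The lowest of all respiratory genes was cox-16, with 10.4 in the series list, none in replicate 1 and 23.9 in replicate 2; in the other ranked series list it had 40.3 and cox-14 had no peak. In the series list the values of the 8 factors ran from 10.4 to 59.7 and those of the 7 subunits from 23.6 to 213, so the groups overlapped.

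ATP synthase makes ATP from the gradient. Its strongest gene was atp-3, for the stalk subunit named OSCP in mammals, with 63.3 in the series list, 30.2 in replicate 1 and 32.2 in replicate 2. The stalk subunit gene atp-5 had 53.5 in the series list and 42.4 in replicate 1, with no ranked peak in replicate 2, and its series summit lay 974 bp upstream in a coding exon of lmtr-3. The catalytic core genes were lower: atp-1 (alpha subunit) had 37.9 in the series list, none in replicate 1 and 28.7 in replicate 2, and atp-2 (beta subunit) had 34.4, 22.6 and 14.9. The gene atp-4, for coupling factor 6, had 26.5, 20.6 and 22.7. Of the 5 genes, atp-3 was above the coding gene median in both replicates, as were 17.2% of coding genes.

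Over the 29 genes measured in both ranked lists, log10 values had Pearson's r = 0.604 and Spearman's rho = 0.419, as a description across genes that share 2 libraries and are not independent replicates. The conservative list holds peaks that the replicates rank alike, so leaving its genes out removes genes chosen for that agreement. A lower correlation without them is therefore no separate result, and other reasons for it were not tested. Without those 5 genes r was 0.052 and rho 0.05 over 24 genes. All 9067 coding genes with a peak in both replicates had r = 0.508 and rho = 0.434, and the 8414 without a conservative summit had r = 0.29 and rho = 0.306.

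The highest peak of replicate 1 overlapped that of replicate 2 by at least 1 bp at 17 of 29 respiratory genes (58.6%), against 61.5% of the 9067 coding genes. All 5 genes with a conservative summit were among the 17, with summits 16 bp apart at cox-6A, 26 bp at cox-5B, 53 bp at cox-6B, 41 bp at cyc-2.1 and 86 bp at nuo-2. Without those 5 the count was 12 of 24, against 58.8% of 8414 coding genes without a conservative summit. At cox-4 and cox-7C the 2 replicates' highest peaks were 560 and 888 bp apart, so their values describe different places. The same holds at the other genes without overlap, with 352 to 999 bp between summits. These were ucr-1, cox-10, sdhd-1, cox-19, nuo-4, nuo-1, atp-4, sdhb-1, nuo-3 and nuo-5.

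**Figure D3:**
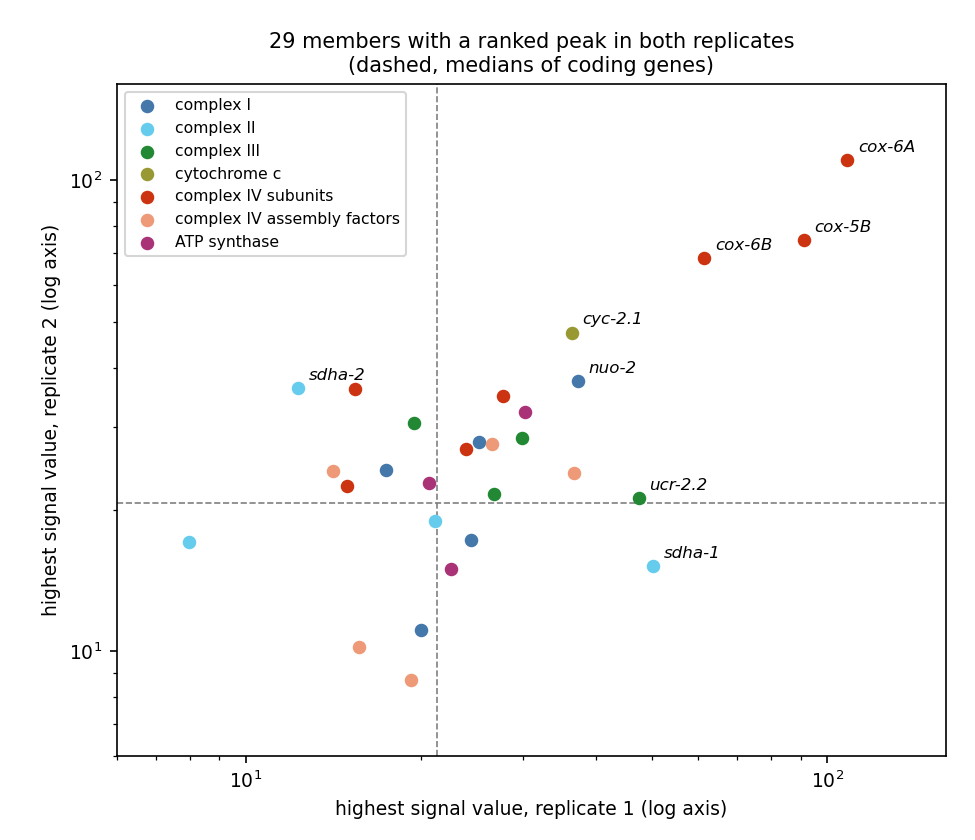
Highest signal value in replicate 1 (x) against replicate 2 (y), both on log axes, for the 29 respiratory genes with a ranked peak in both replicates, coloured by complex, with dashed medians of coding genes at 21.3 and 20.6. The 3 complex IV subunits cox-6A, cox-5B and cox-6B stand apart at 61.5 or more in both, while sdha-1 and ucr-2.2 are high in replicate 1 and sdha-2 in replicate 2.

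Most series summits were upstream of the 5′ end. The median position over 38 genes was −262.5 bp, against −344 bp for all coding genes, with 81.6% upstream against 82.0% and 52.6% within 300 bp against 46.4%. By annotation 12 summits were intergenic, 11 in a coding exon, 8 in an intron, 4 in a 3′ UTR and 3 in a 5′ UTR. The windows are crowded: 19 of the 38 summits were also in the window of another coding gene, and 10 were nearer to that gene's 5′ end. At 17 of the 39 genes the upstream neighbour lay on the same strand, within 500 bp in 15 of them. Which gene a shared peak belongs to was not tested.

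**Figure D4:**
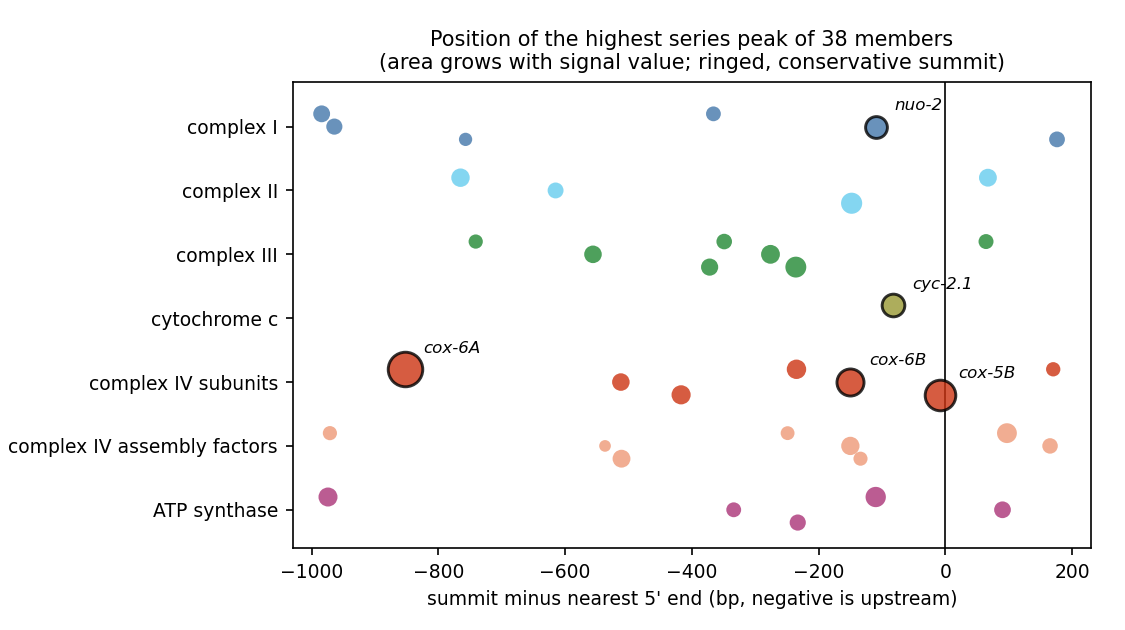
Distance (bp) of the highest series summit from the nearest 5′ end of its gene, negative upstream, for 38 respiratory genes by complex, with point area growing with signal value and rings for conservative summits. The ringed points of cox-5B, cyc-2.1, nuo-2 and cox-6B lie within 150 bp upstream, and that of cox-6A lies 853 bp upstream.

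The 100 bp on either side of each series summit were searched for motifs on both strands. GGTGTGA, the core bound by T-box proteins in other animals, was in 0 of 38 windows of respiratory genes, against 1.79% of 12634 windows of coding genes. The shorter GTGTGA, which every GGTGTGA contains, was in 1 window (2.63%), that of ucr-2.1, against 7.88%. The splice acceptor sequence TTTCAG was in 14 windows (36.8%) against 33.1%, and TATAAA in 9 (23.7%) against 17.4%. Median GC content was 40.6% in windows of respiratory genes and 38.8% in those of coding genes. These are matches of letters in windows of 201 bases and do not show what is bound.

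Of the 68 respiratory genes that the name rule misses, chosen with earlier results of these data known, 8 (11.8%) had a conservative summit and 62 a series peak, with a median series signal value of 39.3. Over all coding genes these were 3.29%, 69.9% and 34.4. The contrast between complex IV subunits and the rest thus holds for the genes of the name rule, and 4 of 25 further complex I genes (16.0%) had a conservative summit. They were ndua-2 with 162, nduc-2 with 125, nduf-11 with 91.8 and nduf-2.2 with 77.7 among 25 further complex I genes, and T27E9.2 with 91.3 among 4 of complex III. Others were Y82E9BR.3 with 86.2 among 12 of ATP synthase, sco-1, a copper delivery factor for complex IV, with 101, and ant-1.1, an ADP/ATP carrier, with 91.3. The peak of nduc-2 is that of cox-6B, and T27E9.2 and ant-1.1 also share a peak, so the 8 genes had 7 peaks, 6 of them not counted above. The summits of ndua-2, nduf-2.2 and nduc-2 lay 361, 781 and 800 bp upstream. They were nearer to the 5′ ends of dnj-29, dlc-1 and Y71H2AM.20. That of T27E9.2, 581 bp upstream, was nearer to ant-1.1. The summits of nduf-11, Y82E9BR.3 and sco-1 were in no other coding gene's window. Which gene the shared peaks belong to was not tested. Summits in both replicates' own lists were found at ndua-2, with 91.9 in replicate 1 and 61.7 in replicate 2, and at nduc-2. None of the 8 ubiquinone synthesis genes had a conservative summit.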

How the data were processed

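Chromatin immunoprecipitation was sequenced from 2 biological replicates of 1 group, numbered as in the labels. The authors deposited peak lists on build ce11, per the labels, each peak with a signal value of no stated normalization. In the ranked lists a deposited score is the −log10 IDR. Which aligner and peak caller made them is not given in the sources used here. Sequencing depth is unknown, and controls were not used here. No values were rescaled, and values of different lists have no stated common scale.

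The ranked series list named by the rule held 1243 of the 1249 conservative peaks and the other held all 1249, at −log10 IDR from 2.00; the −log10 IDR in the text is from that other list, and signal values are from the list named by the rule. Summits were placed in windows of Ensembl release 115 genes with Python 3.11.15 and pandas 2.3.3, tested on simulated peaks. A gene took its highest peak. Genes with a conservative summit were described in full, and of the others the 3 strongest of each complex and those missing from a list were named, with the remaining genes by value. The members and lists were chosen with earlier results of these data known. No test was run over the list. Sequences are from the RefSeq genome of the same build; windows sharing a run of 24 bases with chromosome I are not printed. Alternatives changed the list, the window, the assignment and the small RNA filter.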

Additional observations from a re-analysis of the deposited data

How the results depend on the processing

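With conservative peaks above their median signal value only, 3 respiratory genes were counted (all coding genes 1.97%) and 0 outside the complex IV subunits, and leaving out either replicate, by the other's own list, gave 3 and 0 (1.54% and 1.57%). Outside those subunits the count was 1 in the second thresholded list (3.28%) and 4 in the window of 2000 bp upstream and 500 bp downstream (4.8%). The count of complex IV subunits was 2 of 7 in the window of 500 and 100 bp, without cox-6A (all coding genes 2.29%). It was also 2 by the nearest 5′ end, without cox-6B (2.49%), and 2 without peaks at small RNA genes, without cox-6A (2.85%). All other settings kept 3. The median signal value of all respiratory genes was 40.8 in the other ranked list, 37.3 in the window of 500 and 100 bp, 48.8 in that of 2000 and 500 bp, 33.8 by the nearest 5′ end and 39.7 without peaks at small RNA genes, with 23.9 to 24.3 when a replicate was left out. For complex IV subunits it was 43.3 by the nearest 5′ end and 27.7 to 36.1 when a replicate was left out. Outside them it was 32.7 and 47.0 in the 2 windows (30.6 and 40.6 for all coding genes) and 36.1 without small RNA genes (34.2 for all coding genes). By the nearest 5′ end it was 32.4, below the 33.2 of all coding genes, which turns its direction. When a replicate was left out it was 21.9 to 23.9. The values of single replicates were read from each replicate's ranked list, where the medians over all coding genes were 21.3 in replicate 1 and 20.6 in replicate 2. The median percentile, 60.7 in replicate 1 and 65.8 in replicate 2, was 66.3 in the narrow window, 54.8 in the wide window and 68.55 with genes lacking a peak at 0 in replicate 1, and 72.3 in the wide window and 78.9 with such genes at 0 in replicate 2. The median summit position was −809 bp in the wide window, whose extra length admits further upstream peaks. The cause of the other shifts was not tested. The unknown depth limits what the absence of a peak shows. No paired analysis was possible because there is 1 group.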

Other observations

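At 16 of the 39 respiratory genes a stronger series peak lay beyond the promoter window, from 1000 to 2000 bp upstream or 200 to 500 bp downstream. That is 41.0% of them, against 37.6% of all coding genes. At 3 of the 39 (7.69%) that peak was conservative, against 1.55% of coding genes. These peaks were read after the window of the report had been set. That nearest to cyc-2.1 (IV:4749903-4750222) lay 1051 bp upstream of its 5′ end, between rpl-20, a ribosomal protein gene, and Y17G9B.5. It had a signal value of 189 in the series list, 96.3 in replicate 1 and 97.2 in replicate 2, against a series value of 82.8 for the peak in the window of cyc-2.1. That upstream of ucr-11 (I:6554628-6554710) lay 1306 bp away between dad-1 and tre-1, with 194 in the series list, 101 in replicate 1 and 94.7 in replicate 2. That upstream of cox-10 (II:12678178-12678497) lay 1616 bp away, with 79.4 in the series list, 38.5 in replicate 1 and 42.7 in replicate 2. The first 2 were in both replicates' own thresholded lists and the third in neither. Other coding genes lie between these peaks and the respiratory genes cyc-2.1, ucr-11 and cox-10, and which gene the peaks belong to was not tested.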
